A study of Mus musculus with 24 samples.

Results

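The 10 genes described here encode proteins of the egg cortex, the actin-rich layer beneath the egg's membrane, and the factors that start actin filaments in the egg. They were chosen by name, with earlier results of these data known, and are 10 of the 25965 genes in the deposited table. Rdx, Ezr and Msn encode radixin, ezrin and moesin (the ERM proteins). Actb and Actg1 encode the β and γ cytoplasmic actins. Fmn2 and Daam1 encode formins, Spire1 and Spire2 encode the Spire nucleators, and Arpc2 encodes a subunit of the Arp2/3 complex.

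Single oocytes of adult mice were collected from the oviduct after natural ovulation, freed of cumulus cells and zona pellucida, and sequenced one by one to ask whether anti-Müllerian hormone (AMH) alters the oocyte's transcripts. The transgenic females were Thy1.2-AMHTg/0 mice, which overexpress AMH from a transgene with a Thy1.2 promoter, and the comparison group was Thy1.2-AMH0/0, called wild type in the labels. Values of 10 transgenic and 11 wild-type oocytes were used, from 4 females of each genotype, and each of 4 sequencing lanes held 1 female of each genotype. One library of the amplification kit's control RNA, whose tissue the labels do not name, was run beside them. The labels do not state the females' ages, their strain background or the cells in which the transgene is active.

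An ERM protein ties actin filaments to the plasma membrane: one end binds membrane proteins and the other, its tail, binds actin. In a mature mouse egg the spindle lies at the cortex under a thick actin cap, and the egg divides so unequally there that it sheds a small polar body. Formin-2 and the Spire proteins cooperate to build the cytoplasmic actin mesh that moves the spindle to the cortex, and the Arp2/3 complex builds the branched actin of the cap.

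Oocyte libraries held 20400000 to 33300000 reads (median 22500000), and 91.1% to 94.8% of them fell in genes of the table. Levels are given as RPM (reads per 1000000 of a library's total), in which 3 reads stood for 0.0900 to 0.147 RPM. RPM is a share of amplified reads. The amount of a transcript per oocyte and the state of its poly(A) tail were not measured. Floors given for absent reads reflect counting alone, because reads from amplified DNA are not separate molecules. All 10 oocyte markers, among them Gdf9, Zp3 and Bcl2l10, were at or above a mean of 1 RPM, with a summed level of 28393 to 47098 RPM in the oocytes and 24.8 RPM in the control RNA. Of 25 cumulus and granulosa markers, Foxl2, Pgr, Lum, Areg and Ereg had no reads in any oocyte. Serpine2 and Col4a1 stood above 1 RPM in every oocyte, and the other markers of that list summed to 0.0972 to 48.0 RPM, highest in oocyte C of the wild-type female of lane 2. Amh itself reached at most 0.0353 RPM in an oocyte, so its transcript could not check the genotype labels.

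Sequences of the transcripts bear on how far related members can be told apart. The actin pair is shown because its reads are the ones most shared. The first 60 coding bases of Actb (chromosome 5, 142903115 to 142906754, GRCm38, reverse strand) and of Actg1 (chromosome 11, 120345690 to 120348542, reverse strand) come from GENCODE M21, and capitals mark the 9 bases that differ. The few amino acids that distinguish the proteins lie at this end.
Actb: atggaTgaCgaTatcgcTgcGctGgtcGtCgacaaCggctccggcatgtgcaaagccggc
Actg1: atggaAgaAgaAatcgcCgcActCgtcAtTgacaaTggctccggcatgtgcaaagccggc
Over the whole coding sequence the pair was 88.7% identical. Every run of 50 coding bases of Actg1 (100%) also occurred in the transcripts of another gene. For Actb the share was 19.6%, and for the other 8 members at most 0.351%. How the authors handled reads that match several genes is not stated, and the Actg1 level in particular is uncertain. One copy in the table, Actg-ps1, had no reads in any library. Lrrc58, which shared the most runs with Actb (179), stood at 26.4 RPM in the oocytes and 90.2 RPM in the control RNA. How far shared reads entered the Actb level was not tested.

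The ERM genes are shown at their coding end, which encodes the actin-binding tail with the threonine whose phosphorylation holds the protein open. The genes are Rdx (chromosome 9, 52047150 to 52088737, GRCm38, forward strand), Ezr (chromosome 17, 6738041 to 6782784, reverse strand) and Msn (chromosome X, 96096042 to 96168552, forward strand). Each line gives the last 90 coding bases, and capitals mark bases that differ from Rdx.
Rdx: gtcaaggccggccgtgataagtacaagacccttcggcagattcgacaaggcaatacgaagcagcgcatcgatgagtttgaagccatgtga
Ezr: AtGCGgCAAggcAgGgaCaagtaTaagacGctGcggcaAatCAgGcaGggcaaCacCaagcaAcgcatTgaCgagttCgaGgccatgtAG
Msn: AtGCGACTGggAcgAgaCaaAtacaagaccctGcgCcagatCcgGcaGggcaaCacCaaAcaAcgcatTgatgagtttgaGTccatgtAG
Ezr differed from Rdx at 27 and Msn at 26 of these bases. Over the whole coding sequence Rdx was 69.5% identical to Ezr and 70.7% to Msn. At most 0.193% of the runs of 50 bases in an ERM transcript occurred in another gene.

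Radixin was the ERM transcript of the oocyte. Rdx stood at 4958 ± 872 RPM (SD over 21 oocytes) and ranked 9 among all genes by mean level, against rank 2159 and 99.6 RPM in the control RNA. In transgenic oocytes it ran from 3640 through a median of 5371 to 6297 RPM, and in wild-type oocytes from 3774 through 4521 to 6562 RPM. The lowest oocyte was still 36.6-fold above the control RNA, and the genotypes overlapped over most of their range.

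Ezr and Msn were low in the oocytes, with reads of Ezr in all 21 and of Msn in 14. Ezr stood at 2.83 ± 1.73 RPM, with 0.178, 2.27 and 5.49 RPM as the lowest, median and highest transgenic values and 0.542, 2.67 and 6.22 RPM in the wild type. Msn stood at 1.13 ± 1.36 RPM, with a transgenic median of 0.881 RPM and a highest value of 4.39 RPM, and a wild-type median of 0 and a highest value of 4.06 RPM. Msn had no reads in 1 transgenic and 6 wild-type oocytes, which in the latter allows up to 0.106 to 0.145 RPM. The control RNA held 90.2 RPM of Ezr and 48.8 RPM of Msn, more than any oocyte did. Per kilobase of transcript, Rdx made up 99.8% to 99.98% of the ERM reads of an oocyte (median 99.9%) and 35.6% of those of the control RNA.

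**Figure D1:**
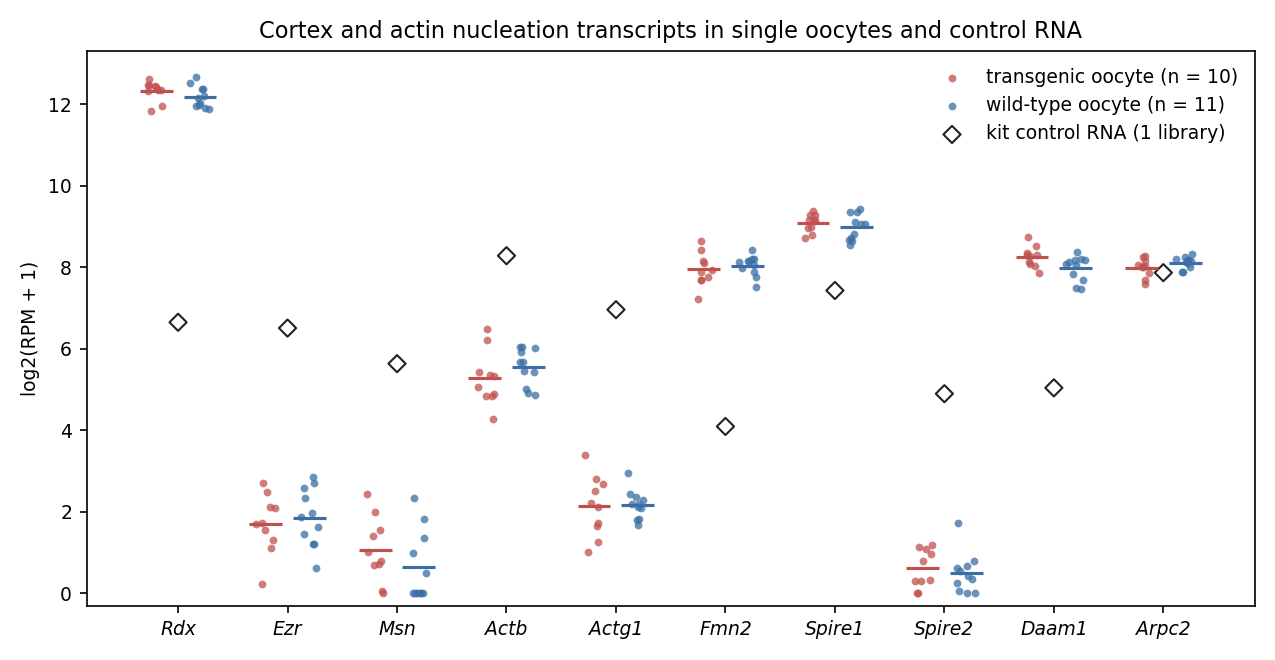
Each point is the level of a gene in 1 oocyte as log2(RPM + 1), in red for 10 transgenic and blue for 11 wild-type oocytes, with a line at the group mean and a diamond for the 1 control RNA library. Rdx lies above the control RNA in all oocytes, Ezr, Msn, Actb, Actg1 and Spire2 lie below it in all, and the genotypes overlap for every gene.

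Cytoplasmic actin transcripts, abundant in most cells, had a low RPM in the oocytes. Actb stood at 45.0 ± 18.2 RPM against 311 RPM in the control RNA. It ran from 18.3 through 36.0 to 88.7 RPM in transgenic and from 28.2 through 49.8 to 65.6 RPM in wild-type oocytes, so that the highest oocyte was still 3.51-fold below the control RNA. Actg1 stood at 3.80 ± 1.95 RPM against 124 RPM, with 1.02, 3.50 and 9.51 RPM as the lowest, median and highest transgenic values and 2.23, 3.54 and 6.81 RPM in the wild type. Per kilobase Actb was 80.8% to 97.7% of the pair (median 93.0%), against 71.9% in the control RNA. The muscle actins Acta1, Acta2 and Actc1 had no reads in any oocyte, and the smooth-muscle γ-actin Actg2 stood at 0.96 RPM.

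Of the Spire genes, Spire1 (chromosome 18, 67488209 to 67552777, GRCm38, reverse strand) carried nearly all reads. It stood at 531 ± 98.2 RPM, running from 418 through 565 to 665 RPM in transgenic and from 371 through 532 to 686 RPM in wild-type oocytes, all above the 172 RPM of the control RNA. Spire2 (chromosome 8, 123332713 to 123369515, forward strand) stood at 0.547 ± 0.573 RPM against 28.9 RPM and was the 1 member below the mean of 1 RPM needed for testing. It had no reads in 2 transgenic and 2 wild-type oocytes. Per kilobase Spire1 made up a median of 99.9% of the pair in the oocytes and 73.4% in the control RNA.

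**Figure D2:**
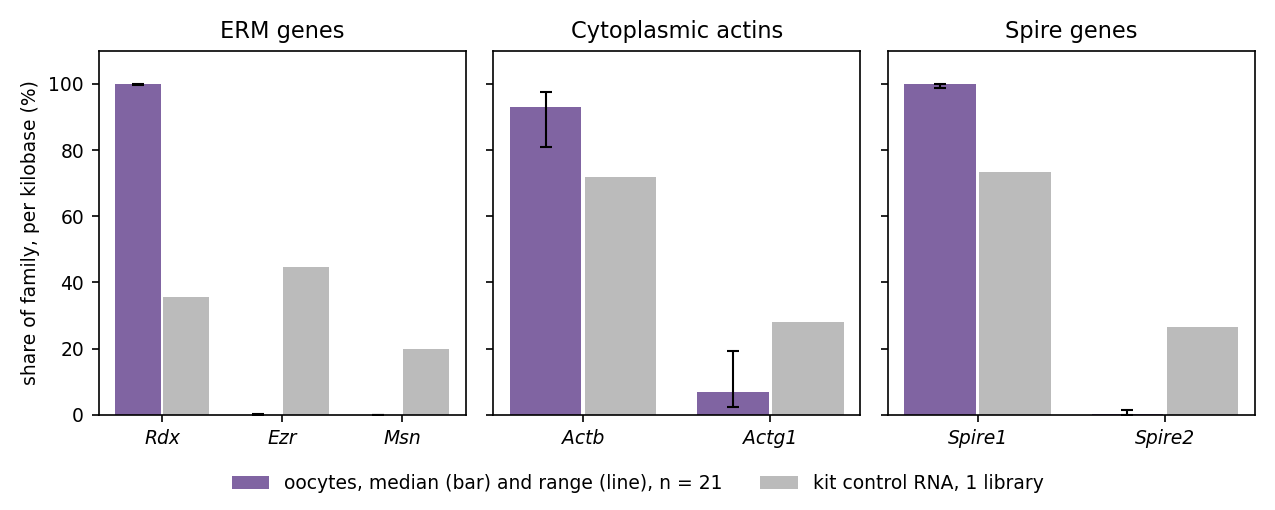
Bars give each gene's share of its family's reads per kilobase of transcript, in percent, as the median over 21 oocytes (purple, with a line from the lowest to the highest oocyte) and in the 1 control RNA library (grey). The oocyte share is 99.9% for Rdx, 93.0% for Actb and 99.9% for Spire1, against 35.6%, 71.9% and 73.4% in the control RNA.

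The formins Fmn2 and Daam1 were high in the oocytes. Fmn2 (chromosome 1, 174501825 to 174822717, GRCm38, forward strand), the partner of the Spire proteins, stood at 261 ± 57.8 RPM against 16.1 RPM in the control RNA. It ran from 147 through 240 to 399 RPM in transgenic and from 183 through 277 to 340 RPM in wild-type oocytes. Daam1 (chromosome 12, 71831078 to 71992367, forward strand), a formin that acts downstream of Wnt signals, stood at 281 ± 58.7 RPM against 32.0 RPM. It ran from 233 through 312 to 427 RPM in transgenic and from 177 through 270 to 329 RPM in wild-type oocytes. The lowest oocyte was 9.15-fold above the control RNA for Fmn2 and 5.55-fold for Daam1.

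Arpc2 (chromosome 1, 74236497 to 74268209, forward strand) holds the 2 actin-related proteins of the Arp2/3 complex together. It stood at 268 ± 33.4 RPM, close to the 233 RPM of the control RNA, and was above it in 19 of 21 oocytes. It ran from 193 through 259 to 309 RPM in transgenic and from 235 through 283 to 319 RPM in wild-type oocytes, a narrow range in both genotypes.

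Per kilobase of transcript (RPKM, on the reference transcript of each gene) the order was Rdx at 1132 ± 199, Arpc2 at 186 ± 23.2, Spire1 at 105 ± 19.5, Daam1 at 47.9 ± 9.99, Fmn2 at 40.5 ± 8.97, Actb at 23.4 ± 9.49, Actg1 at 1.95 ± 0.997, Ezr at 0.895 ± 0.548, Msn at 0.293 ± 0.355 and Spire2 at 0.235 ± 0.246 (SD, n = 21 oocytes). The upper genes of each neighbouring pair down to Actb over Actg1 were higher in all 21 oocytes, apart from Daam1 over Fmn2 (18 of 21). Below that the order was looser: Actg1 exceeded Ezr in 16 oocytes, Ezr exceeded Msn in 16, and Msn exceeded Spire2 in 8. Daam1 and Fmn2, and Msn and Spire2, differed by less than their spread. Transcript lengths of the egg's own isoforms were not measured.

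Set against the control RNA at a fold of 4, 3 members were higher in the oocytes (Rdx 49.8-fold, Fmn2 16.2-fold, Daam1 8.80-fold), where 18.7% of all 16105 genes compared were. The 5 members that were lower, as 49.6% of all genes were, were Spire2 52.7-fold, Msn 43.3-fold, Actg1 32.5-fold, Ezr 31.8-fold and Actb 6.91-fold. Spire1 was 3.09-fold higher and Arpc2 1.15-fold higher. At a fold of 2, Spire1 joined the higher members (25.6% of all genes were higher, 58.2% lower), and at a fold of 8 Actb left the lower ones (13.1% and 41.6%). The median gene was lower in the oocytes by 1.96 on the log2 scale. With 1 control library there is no replicate check, and in a mixed RNA fewer expressing cells and less RNA per cell cannot be told apart.

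The same contrast was described for related genes, which were chosen after their values were seen. Within the Arp2/3 complex, Arpc1b was 13.6-fold higher in the oocytes than in the control RNA (359 against 26.3 RPM) while its paralog Arpc1a was 142-fold lower (1.16 against 165 RPM). Arpc5l was 2.72-fold higher (286 against 105 RPM) and Arpc5 13.8-fold lower (9.30 against 129 RPM). Both subunits thus had 1 paralog above and 1 below the control RNA.

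Formins beyond the members split in the same manner. Fhod3, the most abundant other gene of that list, was 22.7-fold higher in the oocytes (286 against 12.6 RPM), Diaph3 14.7-fold and Diaph1 9.90-fold higher. Fmnl1 was 211-fold lower (0.510 against 108 RPM), and Daam2, the paralog of Daam1, stood at 0.00885 RPM against 29.2 RPM. Of the 18 formins and other nucleators, Fmn2, Daam1 and Spire2 included, 6 were at least 4-fold higher and 7 at least 4-fold lower than in the control RNA, beside 18.7% and 49.6% of all genes. Among kinases and motors of the cortex, Rock1, a kinase that drives myosin, was 15.0-fold higher and Rock2 9.09-fold lower. The myosin light chain gene Myl12a was 13.3-fold higher and Myl12b 6.98-fold lower.

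**Figure D3:**
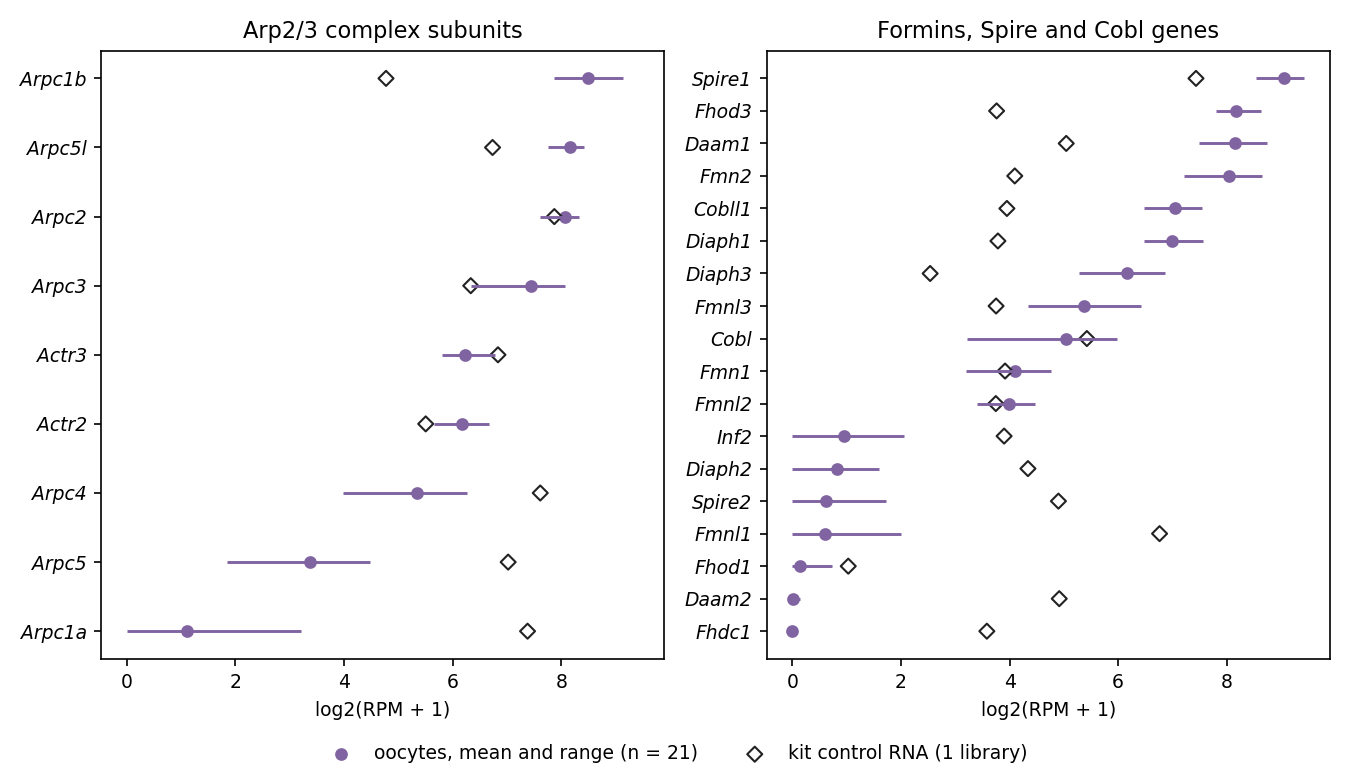
Purple points give the level of each gene as log2(mean RPM + 1) over 21 oocytes with a line from the lowest to the highest oocyte, and diamonds give the 1 control RNA library. Arpc1b and Arpc5l lie right of their diamonds and Arpc1a and Arpc5 left of them, as do Fhod3 and Daam1 against Fmnl1 and Daam2.

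Transgenic and wild-type oocytes were compared over females, to ask whether AMH overexpression went with a change in these transcripts, and no member passed the threshold. Of the 10 members 9 were tested, with limma on the female means of log2(RPM + 1), a scale that understates changes of low genes. At a Benjamini-Hochberg adjusted p under 0.05 limma called 0.0% of 10987 genes in either direction, with a smallest adjusted p of 0.724. At an unadjusted p under 0.05 it called 6.81% of all genes (305 upward and 443 downward with the transgene) and 0 members. The females of the genotypes overlapped for all 10 members, while 4.31% of the tested genes did not overlap.

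Rdx stood at 4645, 4776, 5788 and 5448 RPM in the transgenic females of lanes 1 to 4 and at 4254, 4324, 4678 and 6240 RPM in the wild-type females. The transgenic female was the higher in 3 lanes and the lower in lane 4. The log2 difference was 0.09 ± 0.15 (SE; 95% interval -0.24 to 0.42; limma adjusted p = 0.897; n = 4 and 4 females).

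Daam1 had the smallest p of the members. It stood at 253, 295, 373 and 296 RPM in the transgenic females of lanes 1 to 4 and at 247, 259, 296 and 202 RPM in the wild-type females. The transgenic female was the higher in all 4 lanes, which 7.97% of tested genes also showed. The log2 difference was 0.29 ± 0.16 (95% interval -0.06 to 0.63; limma unadjusted p = 0.097, adjusted p = 0.764), and over the alternative analyses the adjusted p ran from 0.247 to 0.999.

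Actb stood at 23.1, 34.2, 67.1 and 34.3 RPM in the transgenic females and at 46.1, 55.2, 55.2 and 28.8 RPM in the wild-type females of lanes 1 to 4. The transgenic female was the lower in lanes 1 and 2 and the higher in lanes 3 and 4. The log2 difference was -0.29 ± 0.29 (95% interval -0.92 to 0.33; limma adjusted p = 0.838). A property of the libraries differed as well: the median share of reads in listed genes was 93.34% for transgenic oocytes and 92.24% for wild-type ones. With this share as a covariate, added after the data were seen, the Actb difference was 0.28 (limma adjusted p = 0.80), so its sign turned. With the same covariate Fmn2 turned to 0.12 ± 0.14 and Daam1 reached 0.54 ± 0.12 (SE; limma adjusted p = 0.882 and 0.785). The value for Daam1 equals the smallest limma adjusted p of any gene in that fit, which called 0 genes.

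The other tested members differed by -0.11 ± 0.16 for Fmn2, 0.14 ± 0.16 for Spire1, -0.08 ± 0.15 for Arpc2, 0.37 ± 0.32 for Msn, -0.08 ± 0.26 for Actg1 and -0.0049 ± 0.34 for Ezr (log2, transgenic minus wild type, ± SE). Their limma adjusted p ran from 0.822 for Msn to 0.998 for Ezr. The intervals of Rdx, Fmn2, Spire1, Daam1 and Arpc2 lay within -0.45 and 0.63, while those of the low genes Ezr (-0.73 to 0.72) and Msn (-0.34 to 1.07) were wider. The median difference over the 9 members was -0.0049, beside -0.014 over all tested genes. Spire2 was compared alone: 0.616 ± 0.103 RPM for transgenic against 0.573 ± 0.565 RPM for wild-type females (SD, n = 4; exact permutation test of the females on log2(RPM + 1), two-sided, p = 0.83, where the smallest possible is 0.0286).

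**Figure D4:**
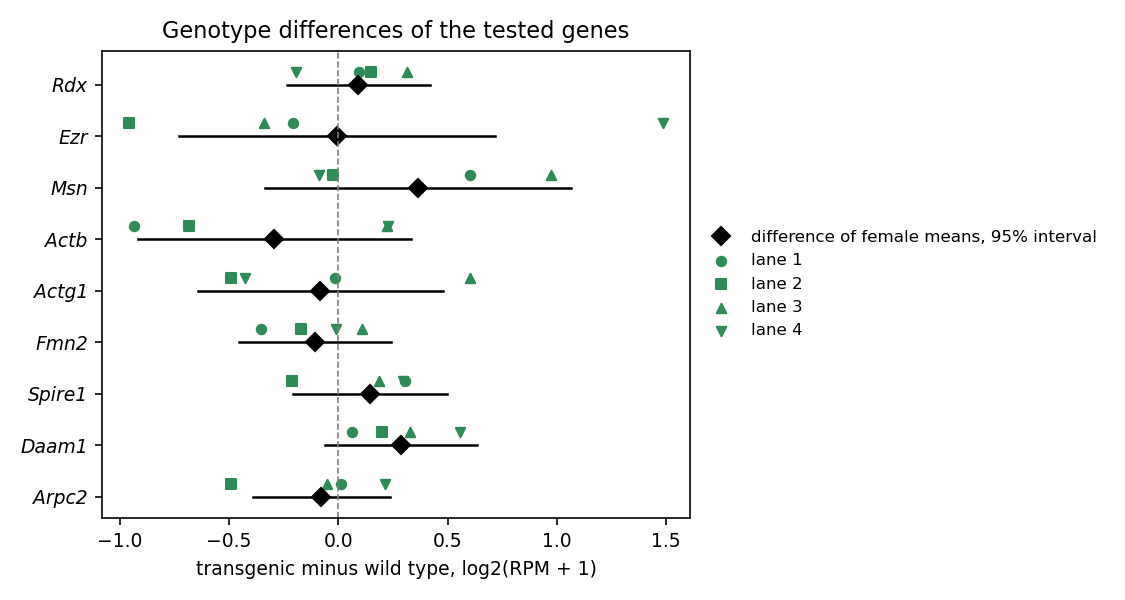
Diamonds give the transgenic minus wild-type difference of the female means in log2(RPM + 1) with its 95% interval for the 9 tested genes, and green symbols the difference within each of the 4 lanes. Every interval holds 0, and Daam1 is the 1 member with all 4 lanes on the same side.

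Oocytes of 1 female resembled each other closely for Arpc2, Spire1, Rdx and Daam1, and less so for Fmn2 and Actb. The SD of log2(RPM + 1) among sister oocytes, pooled over the 8 females (13 degrees of freedom), was 0.108 for Arpc2, 0.212 for Spire1, 0.213 for Rdx and 0.232 for Daam1. Beside a median of 0.410 over all tested genes, these lay at the percentiles 0.173, 8.72, 8.86 and 12.1. The tested genes include many of lower level, and genes of like level were not compared separately. The largest ratio between 2 sisters was 1.23 for Arpc2, 1.55 for Rdx, 1.60 for Spire1, 1.64 for Daam1, 1.87 for Fmn2 and 2.24 for Actb. Fmn2 had an SD of 0.310 (percentile 28.2) and Actb of 0.391 (percentile 46.2). The low genes Actg1, Ezr and Msn had SDs of 0.578, 0.645 and 0.837. Read counting alone gives 0.0043 for Rdx, 0.045 for Actb and 0.129 for Ezr.

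The female means of Actb varied more than those of most genes. Their SD was 0.506 (percentile 83.9), against 0.391 among sisters. Differences of genotype, lane and sisters also enter this SD and were not separated. The 3 transgenic sisters of lane 3 held 39.6, 72.9 and 88.7 RPM. For Rdx the SD of the female means was 0.207 (percentile 16.5).

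Over the 21 oocytes, Actb was higher where Fmn2 and Daam1 were higher. Pearson's r of log2(RPM + 1) was 0.78 for Actb with Fmn2 (Spearman's rank correlation 0.75; r 0.62 without the 2 oocytes farthest from the Actb median), 0.62 for Actb with Daam1 (rank correlation 0.62; r 0.51) and 0.62 for Fmn2 with Daam1 (rank correlation 0.64; r 0.52). As deviations from the female means they were 0.75, 0.77 and 0.72. These are descriptions, since the oocytes share females and lanes and the genes share libraries. The share of reads in listed genes moved with the same genes: r was -0.85 with Actb, -0.77 with Fmn2 and -0.50 with Daam1, against -0.06 with Rdx, 0.02 with Arpc2 and 0.42 with Spire1. Spire1 ran opposite to the 3 genes among sisters. The r of deviations from the female means was -0.75 with Actb, -0.46 with Fmn2 and -0.64 with Daam1. Over the 21 oocytes r was weaker, at -0.22, -0.37 and -0.12. The library total had an r of -0.65 with Actb. The part of these library properties in the correlations was not tested.

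**Figure D5:**
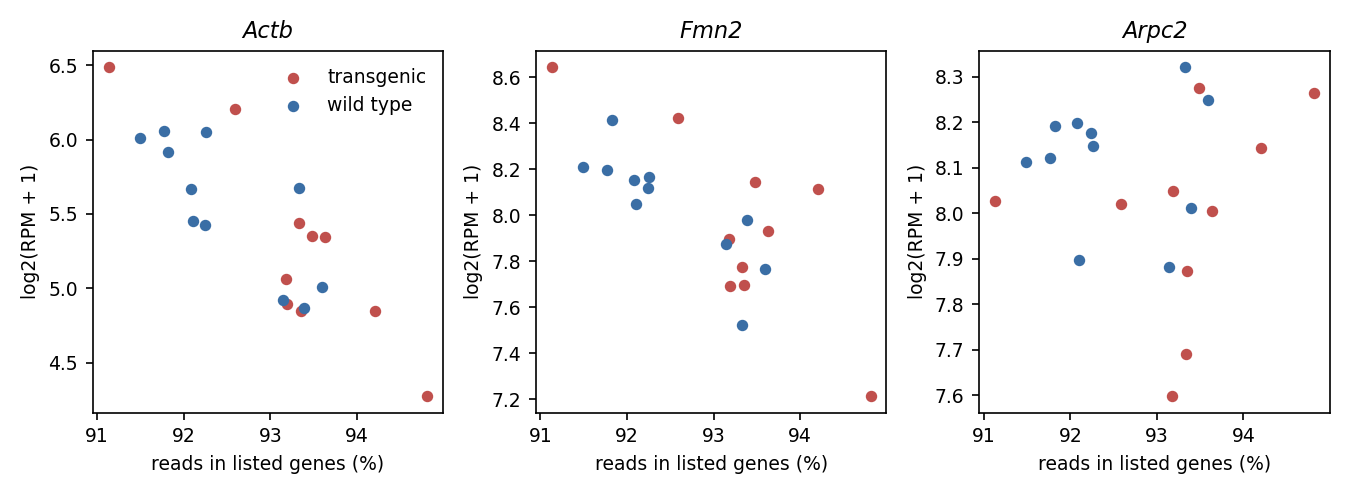
Each point is 1 oocyte, with the share of its reads in listed genes in percent on the x axis and the level of the gene as log2(RPM + 1) on the y axis, in red for transgenic and blue for wild type. Actb and Fmn2 are lower where the share is higher (r -0.85 and -0.77 over 21 oocytes), and Arpc2 has no such slope (r 0.02).

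Genes whose levels followed a member most closely were sought among the 6031 genes averaging 10 RPM or more, by Pearson's r over the 21 oocytes. For Rdx they were Cndp1, a dipeptidase (r 0.81), Dnajc10, a co-chaperone of the endoplasmic reticulum (0.80), and Dram2 (0.79), and 1 gene exceeded an r of 0.8. For Fmn2 they were Rspo2, a secreted Wnt agonist (0.91), Pkd2l2, of the polycystin family (0.90), and Usp34, a deubiquitinase (0.89), with 33 genes over 0.8. For Actb they were Metap2, a methionine aminopeptidase (0.93), Psma4, a proteasome subunit (0.91), and Nol7 (0.91). In all, 197 genes exceeded 0.8 with Actb. Of the abundant members compared with the share of reads in listed genes, Actb had the strongest relation to it. For Actg1, whose level is uncertain, they were Mcfd2 (0.83), the β-tubulin Tubb6 (0.81) and Calr3 (0.80). Without the 2 oocytes farthest from the Actg1 median these were 0.72, 0.75 and 0.65. All the genes named here were picked as the highest among the 6031 genes, and their r was not tested.

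The partners of these genes were read from 9 lists, and limma called 0 of their genes over all genes tested. Of 10 tested ERM regulators and partners, 4 were higher and 6 lower in the transgenic oocytes. Among them Rock1, the most abundant, averaged 499 ± 75.2 against 559 ± 91.9 RPM (SD over 4 females each), and pairs of values here give the transgenic group first. Ppp1r12a, the targeting subunit of myosin phosphatase, stood at 462 ± 71.1 against 408 ± 46.5 RPM. The tetraspanin Cd9, needed for sperm fusion, stood at 12.5 ± 1.36 against 32.7 ± 27.6 RPM. Its highest oocyte held 107 RPM beside a mean of 21.1 RPM over all oocytes. Cd9 had a log2 difference of -0.99 ± 0.36 (limma unadjusted p = 0.017, adjusted p = 0.724). The difference was -0.31, -0.29, -1.02 and -2.35 in lanes 1 to 4, largest in lane 4.

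All 9 subunit genes of the Arp2/3 complex were tested, and 8 were lower and 1 higher in the transgenic oocytes, with a median log2 difference of -0.18 and 0 at an unadjusted p under 0.05. The subunits share libraries, and of all tested genes 52.2% were lower and 47.8% higher. Without the transgenic female of lane 2, 5 of the 9 were lower and the median was -0.10. Arpc1b was the higher one, at 382 ± 116 against 368 ± 105 RPM. Of 15 tested activators and inhibitors of the complex 10 were higher and 5 lower. Wasl, the N-WASP activator, stood at 347 ± 44.1 against 342 ± 47.2 RPM. Brk1, a small subunit of the WAVE complex, stood at 117 ± 17.6 against 147 ± 9.90 RPM (limma unadjusted p = 0.043, adjusted p = 0.726), and Cyfip2 of the same complex at 33.6 ± 5.86 against 25.6 ± 5.29 RPM.

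Of 11 tested formins and other nucleators, members included, 6 were higher and 5 lower, with a median of 0.03. Fhod3 stood at 285 ± 40.0 against 278 ± 38.9 RPM. Of 20 actin turnover genes 10 were higher and 10 lower. Tmsb10, a thymosin that binds actin monomers, stood at 5.21 ± 2.06 against 10.2 ± 3.04 RPM (limma unadjusted p = 0.0096, adjusted p = 0.724). Wdr1, a partner of cofilin, stood at 135 ± 44.9 against 102 ± 11.7 RPM, and the capping protein gene Capza2 at 272 ± 38.8 against 239 ± 26.8 RPM.

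Vesicles carrying Rab11a and myosin Vb move on the egg's actin mesh. Of 15 tested genes of myosins and vesicle transport 6 were higher and 9 lower. Myo5b stood at 339 ± 47.5 against 255 ± 22.5 RPM. Its log2 difference was 0.40 ± 0.14 (limma unadjusted p = 0.014, adjusted p = 0.724). It was positive in all 4 lanes, but 1 sign in all lanes was a condition for naming it. Rab11a stood at 386 ± 40.3 against 413 ± 87.3 RPM and Myl12a at 256 ± 50.9 against 319 ± 40.7 RPM. Of 14 tested genes of cortical polarity and the polar body ring 7 were higher and 7 lower. Kif23, a kinesin of the central spindle, stood at 1204 ± 171 against 1031 ± 68.2 RPM, and Pard3, a polarity scaffold, at 314 ± 84.4 against 238 ± 7.96 RPM.

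Of 11 tested cross-linkers and spectrins 9 were higher and 2 lower, with a median of 0.15 and 1 at an unadjusted p under 0.05. The cross-linker Actn4 stood at 189 ± 90.01 against 155 ± 22.3 RPM and villin, Vil1, at 122 ± 24.3 against 104 ± 4.10 RPM. Vil1, a bundler of microvillar actin, stood at 0.408 RPM in the control RNA. Without the transgenic female of lane 1, 6 were higher and 5 lower, with a median of 0.01. The 2 cytoplasmic actins were both lower in mean log2(RPM + 1), but Actb turned with the covariate above and Actg1 with limma voom on recovered reads (0.053). In mean RPM Actg1 was not lower, at 3.93 ± 1.202 against 3.81 ± 1.17 RPM.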

How the data were processed

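Per the labels' protocols, single lysed oocytes went through SMART-Seq v4 amplification and ThruPLEX library preparation. Trim Galore and HISAT2 and the build GRCm39 are named in the submitters' processing notes, which give no counting tool. The table's coordinates were those of GRCm38: of 25035 gene IDs found in GENCODE M21, 99.7% overlapped the same gene. The deposited values are log2 values the authors made per library. They are named RPKM but hold log2 RPM, with 0.9 reads for a gene without reads, and 100% of 256342 nonzero values under 2000 reads came out whole to within 0.02. A further transgenic oocyte of lane 1 and a water library were not analysed here.

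RPM was recomputed with genes without reads at 0. The 10987 genes averaging 1 RPM or more across oocytes were tested on log2(RPM + 1), averaged per female, with limma 3.58.1 in R 4.3.3 (eBayes with trend, two-sided), Benjamini-Hochberg adjusted, and the test was tried on simulated data. P-values measure the spread between females. Members and lists were chosen with earlier results of these data known. Of 189 listed names 10 were matched by gene ID and 1 was unmatched.

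By the labels, 1 female of each genotype shared each lane, so the lane pairs them. Across genes, the deviations of paired females from their genotype's mean correlated at -0.04, 0.08, 0.34 and 0.32 in lanes 1 to 4. Between transgenic and wild-type females of different lanes these correlations ran from -0.36 to 0.31. Named list genes were the most abundant non-member and up to 2 with the smallest p among those with a mean of at least 5 RPM and 1 sign in all 4 lanes; 1 gene this rule names is not reported here. The alternatives covered the pseudocount, filter, scaling, lane block, single oocytes, limma voom on recovered reads and each female left out.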

Additional observations from a re-analysis of the deposited data

How the results depend on the processing

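The 9 tested members were refitted under up to 21 alternatives. Of 186 values 172 kept their sign, 14 turned it and 0 passed the threshold (smallest limma adjusted p 0.247). With the lane as a replicate block limma called 0 genes (1028 had an unadjusted p under 0.05, and the smallest adjusted p was 0.447), and this changed no member's call. A fit on single oocytes that kept this replicate block and took the female as a random effect called 12 genes, no member among them. Leaving out 1 female gave 0 to 1 genes, the 1 without the transgenic female of lane 1. Voom on recovered reads called 0.

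The differences of Ezr, Actg1 and Arpc2, near 0, turned sign. So did those of Actb (-0.29 in the main fit) and Fmn2 (-0.11). Ezr was 0.031 with median-of-ratios scaling, 0.063 with quantile normalization, 0.00076 without the oocyte of highest cumulus marker level once Serpine2 and Col4a1 were set aside, and 0.046 with the share of reads in listed genes as covariate. The last 2 settings were added after the data were seen. With that covariate Actb was 0.28 and Fmn2 0.12, and with voom Actg1 was 0.053. Leaving out 1 female gave -0.29 to 0.17 for Ezr, -0.23 to 0.066 for Actg1 and -0.14 to 0.023 for Arpc2. The cause was not tested. Msn reached 1.23 with a pseudocount of 0.1 RPM. At a fold of 2 Spire1 joined the members above the control RNA, and at a fold of 8 Actb left those below it. Ezr, Msn and Spire2 fell to 4 reads or fewer in at least 1 oocyte, where their levels rest on few reads.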

Other observations

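Of 25 actin turnover genes 13 were at least 4-fold lower in the oocytes than in the control RNA and 0 at least 4-fold higher, where 49.6% and 18.7% of all genes were, so the share of lower genes was near that of all genes. The genes named in these paragraphs were picked after their values were seen. Tmsb4x, the main monomer-binding thymosin of many cells, stood at 0.436 RPM over 21 oocytes against 870 RPM in the control RNA. The cyclase-associated protein gene Cap1 stood at 0.443 against 245 RPM, and gelsolin, Gsn, at 0.0730 against 186 RPM. Profilin genes differed: Pfn1 was 1.55-fold and Pfn2 43.6-fold lower than in the control RNA. Others of the list lay closer to the control RNA: Capza2 stood at 254 against 375 RPM, Capza1 was 1.26-fold, Twf1 1.37-fold and Cfl2 1.83-fold lower, and Ssh3 stood at 1.00 RPM in both.

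Of 16 genes of cortical polarity and the polar body ring 6 were at least 4-fold higher and 4 at least 4-fold lower, beside 18.7% and 49.6% of all genes. Ect2, an exchange factor that acts at the division site, stood at 205 ± 26.04 RPM (SD, n = 21 oocytes) against 0.681 RPM in the control RNA. Racgap1 stood at 167 ± 40.7 against 14.7 RPM, and the scaffold anillin, Anln, at 300.1 ± 36.7 against 36.1 RPM. The septin genes of the list did not share this: Sept9 had no reads in any oocyte against 59.1 RPM, Sept7 was 4.72-fold lower, and Sept2 stood at 35.6 against 35.3 RPM. The control RNA is 1 library of unnamed tissue, so these contrasts have no replicate check.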
